A study of Mus musculus with 7 samples.

Results

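The EGF family of growth factors and receptors was followed at the RNA level in cancer-associated fibroblasts (CAFs) of mouse pancreatic tumors. The members were listed by gene symbol, with earlier results of these data known. They are the ligand genes Ereg, Areg, Hbegf, Tgfa, Btc and Nrg1, the receptor genes Egfr, Erbb2 and Erbb3, and the inhibitor gene Errfi1. Of these 10 genes, 9 are among the 12771 rows of the count table, and Btc, which encodes the ligand betacellulin, was not analysed here. The CAFs came from male C57BL/6 mice (C57BL/6 J in the study's methods), 8 weeks old, whose pancreas was injected with 20000 KPC cells, a mouse pancreatic cancer line. In 1 group the KPC cells carried a hairpin against Brca2 (KPC-shBrca2) and in the other a non-targeting hairpin (KPC-shControl), both delivered by lentivirus under puromycin selection. Tumors were taken 2 to 3 weeks after injection, and living podoplanin-positive cells without CD45, CD31 or EpCAM on their surface were sorted, a gate for host fibroblasts, in which no hairpin was placed. The comparison asks how loss of Brca2 in the cancer cells bears on the fibroblasts beside them, with 3 libraries from KPC-shControl and 4 from KPC-shBrca2 tumors, counted in the study as separate tumors. A single KPC line was used.

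EGF family ligands are made as membrane-bound precursors and are set free by metalloproteases such as ADAM17, which needs an iRhom partner (Rhbdf1 or Rhbdf2) to reach the cell surface. Epiregulin (Ereg), amphiregulin (Areg), HB-EGF (Hbegf) and TGF-alpha (Tgfa) bind the EGF receptor, and neuregulin 1 (Nrg1) binds ErbB3. ErbB2 has no ligand of its own and acts as a partner of the other receptors. Receptor activation feeds the RAS-RAF-MEK-ERK cascade, which in turn raises its own brakes, among them Errfi1 (MIG6), an intracellular inhibitor of the receptor kinase. In the pancreas this signaling is known for its role in acinar-to-ductal conversion and in tumor growth, and fibroblasts are a known source of its ligands.

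Total counts ran from 1898679 to 5990579 per library, and the ranges of the groups overlapped. All values below are read counts divided by DESeq2 size factors (normalized read counts), from a protocol that reads the 3' end of transcripts. In such bulk samples, fewer cells of a type and less RNA per cell cannot be told apart. The sorted cells carried all 8 listed fibroblast markers, whose summed level was 124420 to 142940 in KPC-shControl and 99095 to 119020 in KPC-shBrca2 libraries; Lum and Dcn were called lower (log2 fold change -1.18 and -0.77, DESeq2 adjusted p = 0.015 and 0.069). Of 12 epithelial markers, 8 are in the table and Epcam is not. Their summed level was 417, 844 and 1219 in KPC-shControl replicates 1, 2 and 4, and 2091, 1587, 1824 and 2167 in KPC-shBrca2 replicates 1 to 4. Krt7, Krt8, Krt18, Krt19 and Cldn3, 5 of these 8, were called higher. Of 9 immune markers, 4 are in the table, and their summed level was 242 to 283 in KPC-shControl and 372 to 401 in KPC-shBrca2 libraries. Csf1r (mean 112.5 and 248 normalized counts) and C1qa were called higher, while Cd68 and Lyz2 had log2 fold changes of -0.32 and -0.26 that did not pass (adjusted p = 0.57 and 0.79 by DESeq2). The summed levels of the mesothelial, endothelial, pericyte and Schwann cell lists overlapped between the groups. Notch3, a pericyte marker, was the only gene of these lists called (log2 fold change 1.12, DESeq2 adjusted p = 0.014). Pecam1, Tek and Vwf, endothelial markers, lay lower in every KPC-shBrca2 library than in every control. Their log2 fold changes were -3.60, -1.55 and -1.11, at means of 3.87, 9.84 and 4.22 normalized counts. Kdr, with a mean of 81.5, was at 0.51. The mesothelial marker Msln lay higher in every KPC-shBrca2 library (0.89), and its other listed genes overlapped.

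Members of the family lie together on chromosome 5. In the RefSeq annotation of GRCm38.p6, the assembly that mm10 is based on, the protein-coding genes Epgn (chr5:91027517-91035212), Ereg (chr5:91074617-91093649), Areg (chr5:91139599-91148432) and Btc (chr5:91357261-91402994) follow each other without another protein-coding gene between them. Of these 4 neighbors, Ereg and Areg are in the count table. The other members lie apart, with Tgfa on chromosome 6 (86195038 to 86275744), Nrg1 on chromosome 8 (31807452 to 32891609), Egfr and Erbb2 on chromosome 11 (16752203 to 16913907 and 98412484 to 98437716), Erbb3 on chromosome 10 (128567523 to 128589635) and Errfi1 on chromosome 4 (150853796 to 150868889).

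Promoter sequence was taken from RefSeq (GRCm38.p6, 250 bases before to 50 after a start) for 6 of the 10 members, and not for Ereg, Hbegf, Nrg1 or Erbb3. Those of Areg, the neighbor of Ereg, of Tgfa, which was called higher, and of Errfi1, in which 1 library stood far apart, are shown; Areg and Errfi1 themselves were not called. Capitals mark matches to any of 7 motifs searched on both strands: AP-1 (TGANTCA), CRE (TGACGTCA), heat shock (GAANNTTC), hypoxia (ACGTG), ETS (CCGGAA), the core promoter element TATAAA and the CArG box. All 3 are on the plus strand, at chr5:91139349-91139648 for Areg, chr6:86194972-86195271 for Tgfa and chr4:150854820-150855119 for the second of 2 annotated starts of Errfi1.
Areg: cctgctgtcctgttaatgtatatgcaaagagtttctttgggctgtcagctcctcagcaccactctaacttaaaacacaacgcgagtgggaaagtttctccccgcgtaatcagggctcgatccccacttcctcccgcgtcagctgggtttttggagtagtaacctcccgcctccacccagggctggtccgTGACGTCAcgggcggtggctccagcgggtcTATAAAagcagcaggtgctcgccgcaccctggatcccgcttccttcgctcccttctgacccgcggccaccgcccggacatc
Tgfa: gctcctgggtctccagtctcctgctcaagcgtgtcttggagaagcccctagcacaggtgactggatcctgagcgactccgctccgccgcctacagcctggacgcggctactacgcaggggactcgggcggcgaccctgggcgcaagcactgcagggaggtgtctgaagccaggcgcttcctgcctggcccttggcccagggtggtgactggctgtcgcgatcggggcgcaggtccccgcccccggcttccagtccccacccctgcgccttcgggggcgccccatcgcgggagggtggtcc
Errfi1: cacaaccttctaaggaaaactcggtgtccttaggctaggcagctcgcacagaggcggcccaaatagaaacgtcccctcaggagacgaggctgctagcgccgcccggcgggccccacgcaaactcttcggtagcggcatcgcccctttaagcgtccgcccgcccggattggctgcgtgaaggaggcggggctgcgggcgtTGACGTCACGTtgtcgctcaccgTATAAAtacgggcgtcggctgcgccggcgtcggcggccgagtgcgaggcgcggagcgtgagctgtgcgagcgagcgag
Areg and the second start of Errfi1 share an arrangement, while the window of the first Errfi1 start (chr4:150853546-150853845) held no match to the 7 motifs. A CRE begins 61 bases before the start in Areg and 51 bases before it in Errfi1, where an overlapping ACGTG match on the other strand begins at base -45. A TATAAA match begins 31 bases before the start in Areg and 28 bases before it in Errfi1. A CRE is found in 1.79% of 32851 RefSeq promoters of this length, a TATAAA match in 13.6%, and both in 56 promoters (0.17%), a combination counted after these matches were seen. The Tgfa window held no match to the 7 motifs, which stand in 7.81% (AP-1), 7.86% (heat shock), 19.6% (hypoxia), 14.9% (ETS) and 1.63% (CArG box) of the promoters. A match is a stretch of letters, not a measured binding site.

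Across the family, 2 of the 9 measured members rose in KPC-shBrca2 CAFs, both of them ligand genes, and 0 were called lower, by DESeq2 or by edgeR. The called genes were Tgfa (2.65-fold) and Ereg (2.27-fold). No receptor gene passed the test, nor did the inhibitor gene Errfi1, and none of these 4 genes had an unadjusted p under 0.05. Over all 12768 genes with an adjusted p, 3.77% were called higher and 5.27% lower. The members were chosen with earlier results of these data known, so their counts are not independent evidence of a direction. A call required a DESeq2 adjusted p under 0.1, an absolute log2 fold change over 0.5 and a mean normalized count over 5, a mean that 8 of the 9 members exceeded. The fold changes of all 9 members were positive, with a median log2 value of 0.38 against 0.01 over all genes tested, but those of Hbegf, Nrg1, Erbb2 and Errfi1 turned negative when single libraries were left out. For Ereg and Tgfa, 2 of the 9 members, the libraries of the groups were apart. Over all genes tested, every KPC-shBrca2 library lay above every KPC-shControl library in 7.79% and below in 9.3%. The summed levels of the epithelial and immune markers above were also apart between the groups, higher in KPC-shBrca2, and that of the fibroblast markers was apart and lower. The part of these differences in the ligand results was not tested.

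**Figure D1:**
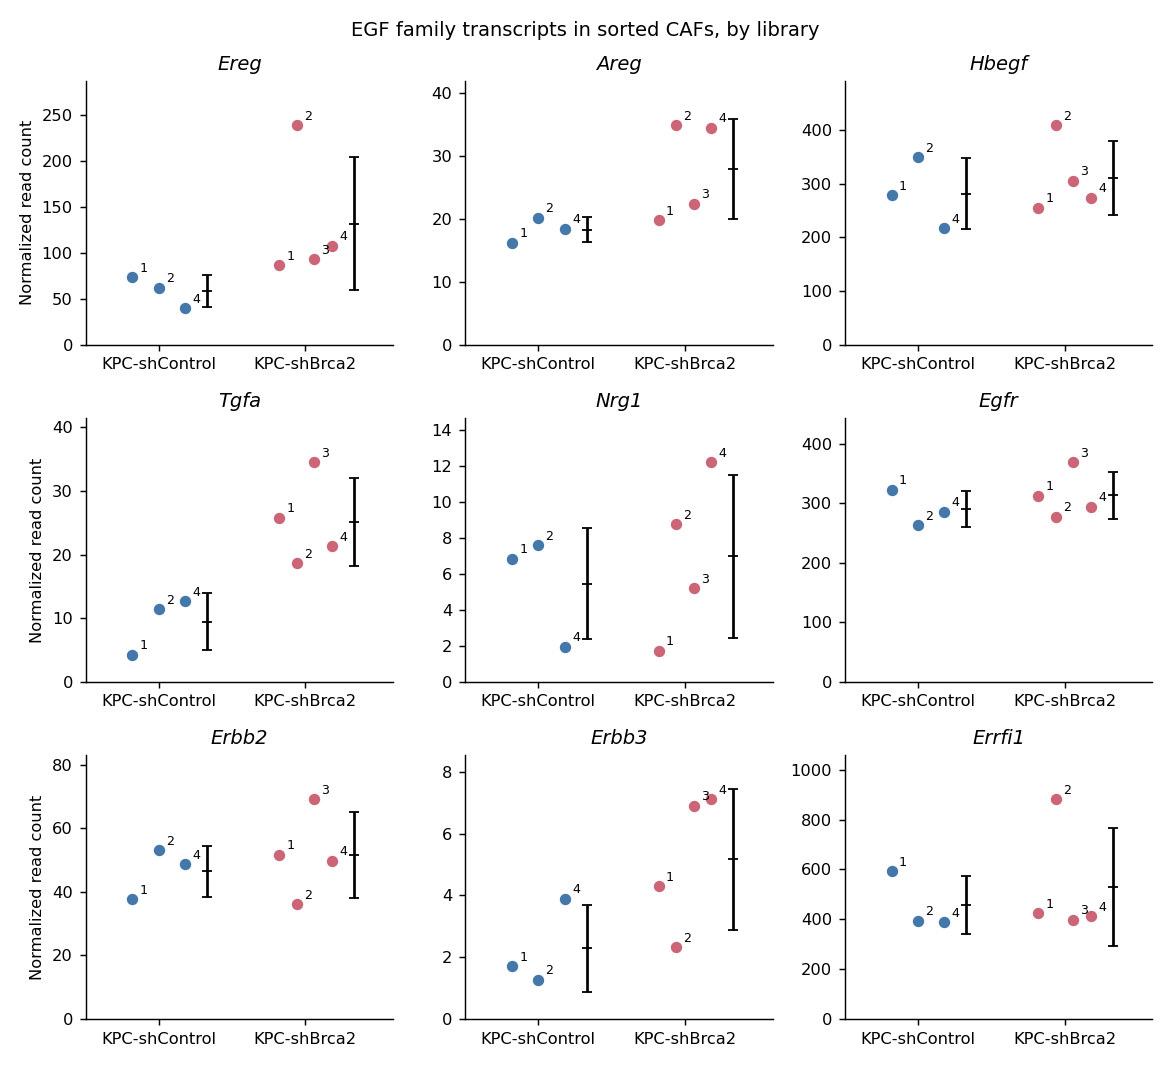
Normalized read counts (y axis, linear, from 0) of the 9 measured EGF family genes in KPC-shControl (blue, n = 3) and KPC-shBrca2 CAFs (red, n = 4), 1 point per library with its replicate number, and the group mean with SD in black. The groups are apart for Ereg and Tgfa and overlap for the other 7 genes; KPC-shBrca2 replicate 2 is the highest library for Ereg, Areg, Hbegf and Errfi1.

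Epiregulin is a secreted ligand that activates EGFR and ErbB4. Ereg had 73.5, 62 and 39.9 normalized counts in the 3 KPC-shControl libraries (replicates 1, 2 and 4), against 86.9, 239.6, 93.3 and 107.7 in KPC-shBrca2 replicates 1 to 4. All 4 KPC-shBrca2 libraries were above all controls, and replicate 2 stood far above the other 3. The group means were 58.4 ± 17.1 (SD, n = 3) and 132 ± 72.3 (SD, n = 4), and the fit gave a log2 fold change of 1.19 ± 0.38 (SE, adjusted p = 0.035 by DESeq2). The size of this rise rested on KPC-shBrca2 replicate 2: without it the log2 fold change was 0.71 and Ereg was not called (DESeq2 adjusted p = 0.18). Nor was it called without KPC-shControl replicate 4, the lowest control, where the log2 fold change was 0.97 (DESeq2 adjusted p = 0.19). In the remaining 5 fits that left out a library Ereg was called. In GENCODE vM39, 173 of 4452 Ereg exon bases are shared with a gene on the opposite strand, and the strand setting of the counting is not given in the sources used here.

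Amphiregulin, the neighbor of epiregulin on chromosome 5, is a ligand of EGFR alone. Areg had 16.2, 20.2 and 18.5 normalized counts in KPC-shControl replicates 1, 2 and 4, and 19.8, 35, 22.5 and 34.6 in KPC-shBrca2 replicates 1 to 4. KPC-shBrca2 replicates 2 and 4 were high, while replicate 1 lay within the range of the controls, so the groups overlapped. The means were 18.3 ± 2.01 (SD, n = 3) and 27.9 ± 7.95 (SD, n = 4). Areg did not pass, at a log2 ratio of 0.64 ± 0.38 (SE) with a 95% interval from -0.11 to 1.39 (adjusted p = 0.4 by DESeq2). It was called in 0 of 13 alternative fits, with log2 fold changes from 0.49 to 0.78. Raw counts were between 13 and 60 per library, and the interval reached past the log2 fold change of Ereg.

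TGF-alpha is a ligand of EGFR known to drive acinar-to-ductal conversion in the pancreas. Tgfa had 4.27, 11.4 and 12.6 normalized counts in KPC-shControl replicates 1, 2 and 4, and 25.8, 18.7, 34.5 and 21.3 in KPC-shBrca2 replicates 1 to 4. Every KPC-shBrca2 library was above every control, with replicate 3 highest and replicate 2 lowest among the former. The means were 9.43 ± 4.52 (SD, n = 3) and 25.1 ± 6.96 (SD, n = 4), a log2 fold change of 1.41 ± 0.47 (SE, adjusted p = 0.045 by DESeq2). The counts behind it were small, from 5 to 32 per library, and the call held in only 3 of the 7 fits that left out a library. Tgfa stood at a log2 fold change of 1.02 without KPC-shControl replicate 1 (DESeq2 adjusted p = 0.39), 1.39 without KPC-shBrca2 replicate 1 (0.19), 1.24 without replicate 3 (0.15) and 1.47 without replicate 4 (0.11). The epithelial marker sum was apart between the groups as Tgfa was. In KPC-shControl both rose from replicate 1 to 2 to 4, with sums of 417, 844 and 1219. In the KPC-shBrca2 group both were lowest in replicate 2, where the sum was 1587. Tgfa was highest in replicate 3, where the sum was 1824. The sum was highest in replicate 4 (2167), where Tgfa was at 21.3. Other marker sums rose in the same order in KPC-shControl replicates 1, 2 and 4. These were the mesothelial sum (772, 1237 and 2376) and the endothelial sum (71.8, 92.4 and 123). Within KPC-shBrca2, the mesothelial sum was highest in replicate 3 (2169) and the endothelial sum lowest there (84.6). Both of these sums overlapped between the groups. The part of RNA from any of these cell types in the Tgfa result was not tested. Of 6835 Tgfa exon bases, 121 are shared with a gene on the opposite strand.

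**Figure D2:**
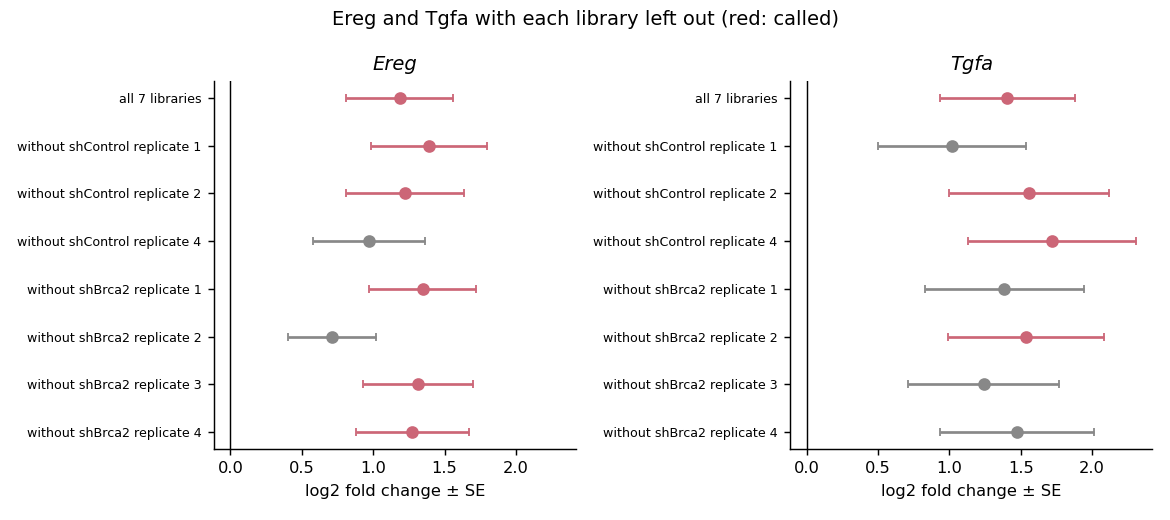
The log2 fold change of Ereg (left) and Tgfa (right), KPC-shBrca2 over KPC-shControl, on the x axis with its standard error, for all 7 libraries and with each library left out (y axis); red points were called and gray points were not. Ereg falls to 0.71 without KPC-shBrca2 replicate 2, and Tgfa runs from 1.02 to 1.72.

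HB-EGF is a heparin-binding ligand of EGFR and ErbB4 that is induced early after growth stimuli. Hbegf, on chromosome 18 (36504927 to 36515805), had 278, 349 and 217 normalized counts in KPC-shControl replicates 1, 2 and 4, and 256, 410, 306 and 274 in KPC-shBrca2 replicates 1 to 4. Replicate 2 was again the highest KPC-shBrca2 library, and the other 3 lay within the range of the controls. Hbegf did not pass, with a 95% interval of its log2 fold change, 0.15, from -0.31 to 0.61 (adjusted p = 0.83 by DESeq2). Nrg1 was near the limit of detection, with 2 to 15 raw counts per library. It had 6.83, 7.59 and 1.95 normalized counts in KPC-shControl replicates 1, 2 and 4, and 1.72, 8.74, 5.18 and 12.2 in KPC-shBrca2 replicates 1 to 4, with low and high libraries in both groups. Its log2 fold change was 0.38 ± 0.77 (SE, adjusted p = 0.88 by DESeq2), and no difference was detectable at this depth. Shared bases on the opposite strand were 831 of 5111 for Hbegf and at most 175 of 16689 with any 1 gene for Nrg1.

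**Figure D3:**
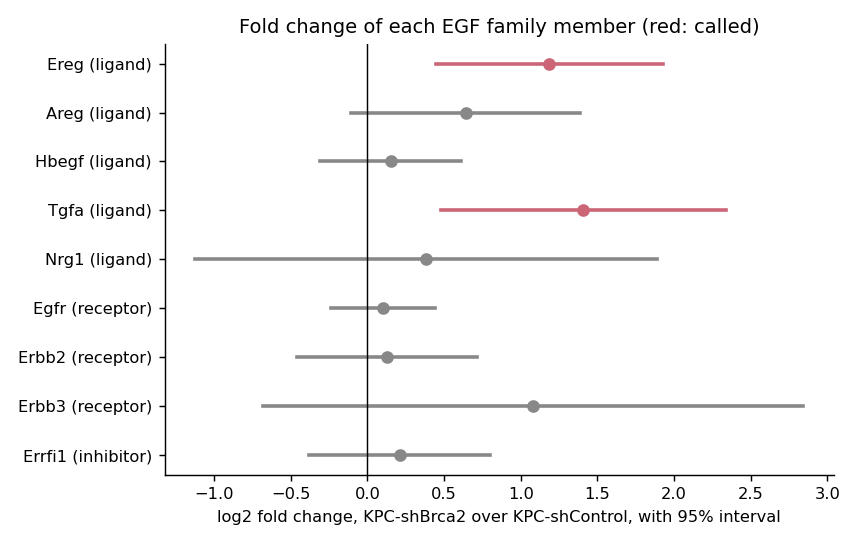
The log2 fold change of each measured member (x axis, KPC-shBrca2 over KPC-shControl; bars are 95% intervals) by gene and role (y axis), red where called. The intervals of Ereg and Tgfa lie above 0, that of Egfr runs from -0.24 to 0.44, and those of Nrg1 and Erbb3 are the widest of the 9.

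The receptor genes showed no called difference. Egfr had 323, 263 and 286 normalized counts in KPC-shControl replicates 1, 2 and 4, and 313, 278, 370 and 295 in KPC-shBrca2 replicates 1 to 4. Of the 4 KPC-shBrca2 libraries only replicate 3 lay above all controls. The means were 291 ± 30.1 (SD, n = 3) and 314 ± 39.8 (SD, n = 4), and the fit gave a log2 fold change of 0.10 ± 0.17 (SE, adjusted p = 0.86 by DESeq2). This was the smallest standard error in the family, and its 95% interval ended at 0.44. Erbb2, which encodes the ligandless partner receptor, had 37.6, 53.1 and 48.6 normalized counts in KPC-shControl replicates 1, 2 and 4, and 51.6, 36.1, 69.1 and 49.8 in KPC-shBrca2 replicates 1 to 4. The lowest and the highest value both came from KPC-shBrca2 libraries, with a log2 fold change of 0.13 (95% interval from -0.46 to 0.71, adjusted p = 0.89 by DESeq2).

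Erbb3, the neuregulin receptor, had 1 to 7 raw counts per library and a mean of 3.93 normalized counts, under the limit of 5 that a call required. Its levels were 1.71, 1.27 and 3.89 in KPC-shControl replicates 1, 2 and 4, and 4.3, 2.33, 6.91 and 7.11 in KPC-shBrca2 replicates 1 to 4. KPC-shBrca2 replicates 3 and 4 were highest, and replicate 2 overlapped with the controls. Its log2 fold change was 1.08 ± 0.90 (SE, adjusted p = 0.6 by DESeq2). ErbB3 is made by epithelial and Schwann cells. The summed level of the 3 Schwann cell markers in the table was 64.5 to 138 in KPC-shControl and 67.1 to 131 in KPC-shBrca2 libraries. Most of that sum was Mbp, with a mean of 84.9 normalized counts and a log2 fold change of 0.18. S100b and Sox10, with means of 11.1 and 1.74, were at -1.09 and -2.83 on the log2 scale. None of the 3 was called. The summed epithelial level was 417 to 1219 in KPC-shControl and 1587 to 2167 in KPC-shBrca2 libraries, with 5 of 8 markers called higher, and its part in the Erbb3 values was not tested.

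Errfi1 encodes MIG6, which binds the active EGF receptor kinase and shuts it down. It had 594, 395 and 387 normalized counts in KPC-shControl replicates 1, 2 and 4, and 425, 882, 399 and 413 in KPC-shBrca2 replicates 1 to 4. KPC-shBrca2 replicate 2 stood far above its group, while the other 3 lay between the controls. The means were 459 ± 117 (SD, n = 3) and 530 ± 235 (SD, n = 4), and the fit gave a log2 fold change of 0.21 ± 0.30 (SE, adjusted p = 0.81 by DESeq2). Without that library the log2 fold change was -0.16 (DESeq2 adjusted p = 0.87). Of 5920 Errfi1 exon bases, 484 are shared with a gene on the opposite strand.

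Within the KPC-shBrca2 group the members split over the libraries. Replicate 2 was the highest of the 4 libraries for Ereg, Areg, Hbegf and Errfi1 and the lowest for Tgfa, Egfr, Erbb2 and Erbb3. Relative to the KPC-shControl mean, on the scale log2(normalized count + 1), replicate 2 was at 2.02 for Ereg, 0.90 for Areg, 0.54 for Hbegf and 0.94 for Errfi1. On that scale it was at -0.06 for Egfr and -0.35 for Erbb2. Replicate 1 was the lowest of its group for Ereg, Areg, Hbegf and Nrg1, and replicate 3 the highest for Tgfa, Egfr and Erbb2. Replicate 2 was also the most deeply sequenced library, with 5990579 counts, and replicate 3 the least, with 1898679. This split was described after the values were seen and was not tested.

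**Figure D4:**
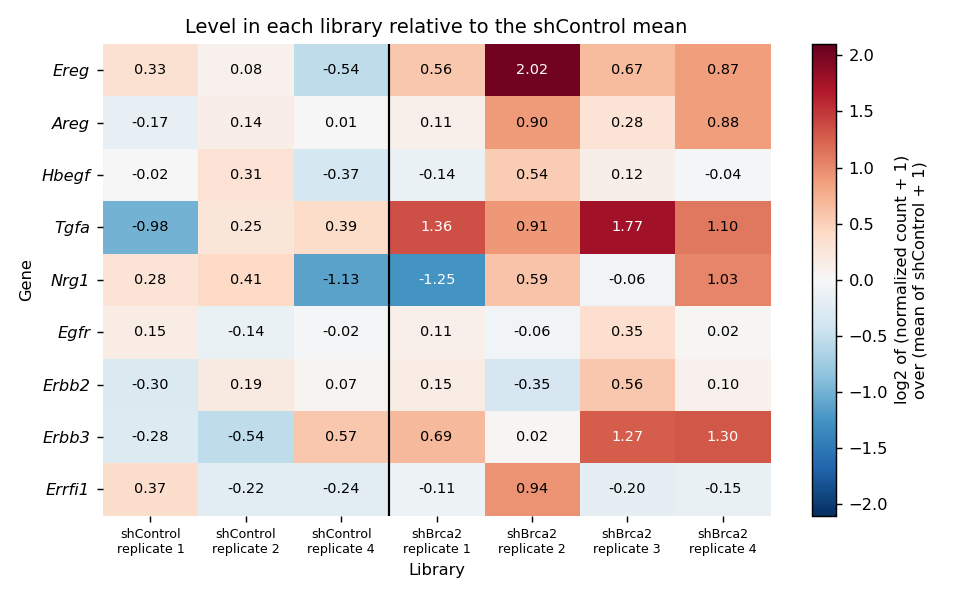
Level of each measured member (rows) in each library (columns) as log2 of (normalized count + 1) over (KPC-shControl mean + 1), with the value printed in each cell; the black line parts the groups. In KPC-shBrca2 replicate 2, Ereg stands at 2.02 and Errfi1 at 0.94, while Tgfa is highest in replicate 3 at 1.77.

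Other genes of the pathway were taken from 5 lists, of which 1 held the remaining ligands and the remaining receptor. Of Egf, Epgn, Nrg2, Nrg3, Nrg4 and Erbb4, only Egf is in the table, with a mean of 2.65 normalized counts and a log2 fold change of 1.02 that did not pass (DESeq2 adjusted p = 0.73). Among 9 genes of ligand release, with a median log2 fold change of 0.08, Rhbdf2 was the only 1 called, and it rose, where 3.77% of all genes tested were called higher and 5.27% lower. Rhbdf2 encodes iRhom2, the partner that brings ADAM17 to the surface, and had 25.6, 55.7 and 48.6 normalized counts in KPC-shControl replicates 1, 2 and 4, and 117, 109, 190 and 124 in KPC-shBrca2 replicates 1 to 4. All KPC-shBrca2 libraries were above all controls, and the log2 fold change was 1.64 ± 0.31 (SE, adjusted p = 2.7e-05 by DESeq2), called in all 13 alternative fits. The sister gene Rhbdf1 (-0.03) and the sheddase genes Adam17 (-0.14) and Adam10 (0.38) did not pass on the log2 scale (adjusted p = 0.95, 0.77 and 0.51 by DESeq2). Rhbdf2 is also known from macrophages. Of the 4 immune markers in the table, Csf1r and C1qa were called higher (1.15 and 1.65 on the log2 scale), and Cd68 and Lyz2 were at -0.32 and -0.26 and not called. The part of such cells in the Rhbdf2 result was not tested.

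Of 12 genes that restrain the receptors, 2 were called, both higher, where 3.77% of all genes tested were called higher, and the list median was 0.07 on the log2 scale. Cd2ap, an adaptor of receptor uptake, had a log2 fold change of 1.12 ± 0.31 (SE, adjusted p = 0.0098 by DESeq2). It was not called without KPC-shControl replicate 1, at 0.97 on the log2 scale (DESeq2 adjusted p = 0.11). Cblb, a ubiquitin ligase that marks receptors for degradation, rose by 0.99 on the log2 scale (adjusted p = 0.082 by DESeq2), and of the 7 fits that left out a library it was called in only 1, that without KPC-shControl replicate 2. Of the 16 relay genes in the table, whose median was 0.02, Map2k1, which encodes the kinase MEK1, was the only 1 called. Its levels were 267, 272 and 231 normalized counts in KPC-shControl replicates 1, 2 and 4, and 423, 480, 358 and 365 in KPC-shBrca2 replicates 1 to 4, with no overlap. Its log2 fold change was 0.67 ± 0.18 (SE, adjusted p = 0.0054 by DESeq2), and it was not called without KPC-shControl replicate 4 (0.60, DESeq2 adjusted p = 0.11). The relay genes Map2k2 and Mapk3 had log2 fold changes of -0.05 and 0.01, neither of which passed.

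Genes that ERK signaling induces moved in both directions. Of 19 such genes, all in the table, 4 were called higher and 2 lower, where 3.77% and 5.27% of all genes tested were, and the median log2 fold change was 0.39, against 0.01 over all genes tested. Dusp4 and Dusp6, phosphatases that switch off ERK, rose by 1.86 and 1.36 on the log2 scale (adjusted p = 5.8e-06 and 0.0085 by DESeq2). Spred3, an inhibitor of RAS signaling, and Etv4, an ETS transcription factor, rose by 1.19 and 1.34 on the log2 scale (DESeq2 adjusted p = 0.0013 and 0.007). These 4 genes were called in every fit that left out a library. Spry2, another feedback inhibitor, fell by 1.15 on the log2 scale (adjusted p = 0.058 by DESeq2) and was called in 0 of those 7 fits. Myc, a growth-promoting transcription factor, had 1673, 557 and 1923 normalized counts in KPC-shControl replicates 1, 2 and 4, and 280, 602, 589 and 312 in KPC-shBrca2 replicates 1 to 4, so the groups overlapped through the low control. It fell by 1.64 on the log2 scale (adjusted p = 0.04 by DESeq2) and was not called without KPC-shControl replicate 1, KPC-shControl replicate 4 or KPC-shBrca2 replicate 4 (-1.48, -1.33 and -1.50). The list was written with earlier results of these libraries known, so its count is not independent evidence of a direction. In KPC-shBrca2 replicate 2, the library with the most Ereg, Dusp4 (59.5 normalized counts, against 79.4 to 83.5 in the other 3) and Dusp6 (69.4, against 107 to 187) were at their lowest of the group. Spred3 and Spry2 were also lowest there, and Myc (602) was highest. Etv4, the remaining called gene, was at neither end there, with 183 normalized counts against 174 in replicate 3 and 272 in replicate 4. Of the 13 uncalled genes of the list, 4 were highest and 4 lowest in that library. This was described after the values were seen, and a link with Ereg was not tested.

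**Figure D5:**
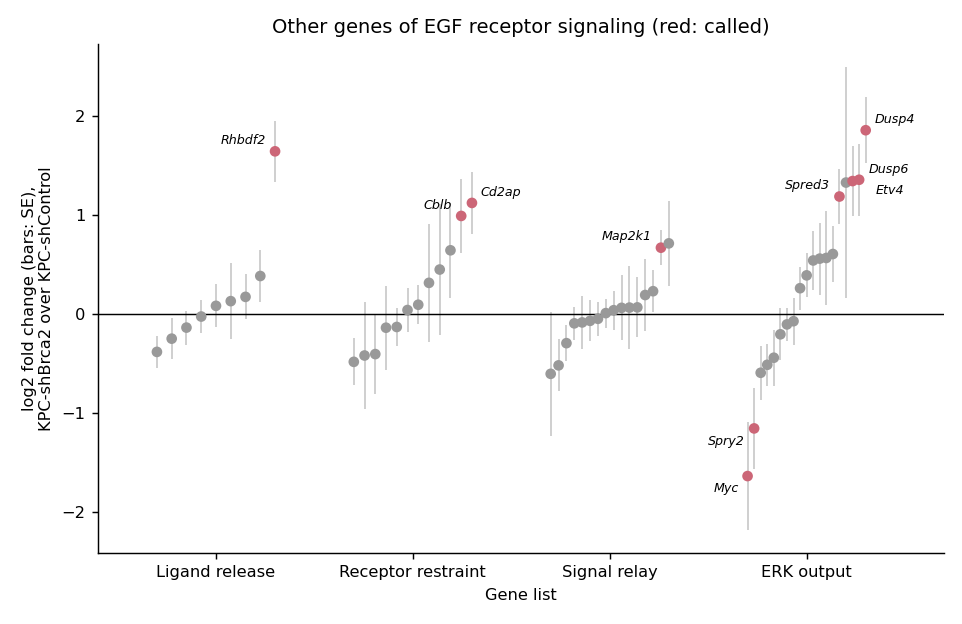
The log2 fold change (y axis, bars are standard errors) of 9 ligand release, 12 receptor restraint, 16 signal relay and 19 ERK output genes, 1 point per gene ordered within its list (x axis), red and named where called. Most points lie near 0, Rhbdf2 stands apart at 1.64, and the ERK output list holds called genes on both sides of 0, from Myc at -1.64 to Dusp4 at 1.86.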

How the data were processed

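CAFs sorted from orthotopic KPC tumors were sequenced by a variant of MARS-seq, which reads the 3' end of poly(A) RNA. The authors deposited raw counts per gene symbol, whole numbers with 1 column per library and no normalization. The submitters' processing notes name bcl2fastq, cutadapt, STAR 2.4.2a, HTSeq and DESeq2 and the build mm10. The annotation, the strand setting and any collapsing of molecular barcodes are not given in the sources used here, so counts may include PCR copies. Groups were read from the sample titles.

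Counts of all 12771 genes in 7 libraries were fitted with DESeq2 1.42.0 (R 4.3.3), by its likelihood ratio test after median-of-ratios scaling, called as in the study; 3 genes received no adjusted p. Errors of fold changes are standard errors. Alternatives were TMM factors, edgeR 4.0.16, the Wald test, no independent filtering, a filter of 10 counts in 3 libraries, the replicate number as a block, and each library left out in turn, 13 in all. The code was tested on simulated data.

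The members and lists were chosen with earlier results of these data known. All members are named, and of each pathway list at most 6 called genes by smallest p; other genes were named after their values were seen. Replicates of a group differed by more than counting noise (lowest chi-square per gene 3.01 for a pair). The p-values set the difference between the groups against the spread between these libraries, and the count error of low genes limits precision. They do not cover variation between cancer cell lines, since a single KPC line was used.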

Additional observations from a re-analysis of the deposited data

Results flagged for a closer look

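Ereg and Errfi1 each had 1 KPC-shBrca2 library far from the other 3, and in both it was replicate 2. For Ereg this library was at 239.6 normalized counts and the next at 107.7, a gap of 0.864 of the whole range. For Errfi1 it was at 881.9 and the next at 425.1, a gap of 0.946 of the range. Both gaps exceed Dixon's 95% critical value for 4 libraries. Of the family 9 genes were examined, and chance flags about 1 in 20 groups. The gap for Hbegf in the same library was 0.675 and did not pass. Groups of 3 were not examined.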

How the results depend on the processing

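Changing the scaling to TMM factors, the test to edgeR or Wald, or the filters on low counts changed no call of a member, and Nrg1 and Erbb3 had no value in the edgeR and count-filtered fits. Leaving out single libraries gave 1 to 2 members called higher and 0 called lower. The log2 fold change of Ereg then ran from 0.71 to 1.39 and that of Tgfa from 1.02 to 1.72, always positive. Members with fold changes near 0 changed sign: Hbegf ran from -0.018 (without KPC-shBrca2 replicate 2; -0.0062 without KPC-shControl replicate 4) to 0.33, Nrg1 from -0.030 to 0.72, Erbb2 from -0.022 to 0.28 and Errfi1 from -0.16 to 0.44. Pathway genes called lower ran from 0 to 2, all genes called higher from 261 (without KPC-shBrca2 replicate 1) to 610 (without KPC-shControl replicate 2), and all genes called lower from 354 to 695. These fits have fewer libraries.

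The replicate number is shared between the groups, but the numbers did not pair the libraries: deviations from the group means correlated at -0.13, -0.17 and -0.18 for numbers 1, 2 and 4 over 6735 genes. With the replicate block, 211 genes were called higher and 280 lower, 1 member was called higher (Ereg, log2 fold change 1.21), Tgfa was not called (1.30, DESeq2 adjusted p = 0.46), Erbb2 was at -0.020, and of the pathway genes 6 were called higher and 0 lower. Map2k1 (0.71, DESeq2 adjusted p = 0.1), Cblb, Myc and Spry2 lost their calls. KPC-shBrca2 replicate 3, the library with the most Tgfa, has no control of its number. It therefore adds nothing to the group contrast in the fit with the block. The cause of these differences was not tested. Depth limits Erbb3, Nrg1 and Tgfa most, with at most 7, 15 and 32 counts in any library.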

Other observations

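Of the 13 ERK output genes that the test did not call, 4 were highest of the KPC-shBrca2 group in replicate 2 (Fosl1, Ier3, Phlda1 and Etv1) and 4 were lowest there (Dusp5, Spry4, Spred2 and Ccnd1). Fosl1, an AP-1 subunit, had 581 normalized counts there and 275, 290 and 276 in replicates 1, 3 and 4 (log2 fold change 0.61, DESeq2 adjusted p = 0.23). Ier3 had 13578 there and 8354 to 9510 in the other 3, and Phlda1 had 2372 there and 1078 to 1328 in the others. The controls had 6727 to 10161 for Ier3 and 1963 to 2606 for Phlda1, so for Phlda1 this library lay within their range. Egr1 and Fos, immediate early genes, did not stand out in that library, at 6797 and 11163 normalized counts. These genes were singled out after their values were seen.

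Among the 6731 genes outside the family with a mean of 50 or more normalized counts, the levels over the 7 libraries that resembled Ereg most, on the scale log2(normalized count + 1), were those of Grcc10 (Pearson r = 0.978, Spearman rho = 0.964), Arl8b (0.951 and 0.893) and Fam91a1 (0.945 and 0.964). For Areg they were Tmem95 (Pearson r = 0.947, Spearman rho = 0.964), Irgq (0.929 and 0.964) and Psmd1 (0.927 and 0.714). These values are descriptions over 7 points that share the 2 groups and differ in depth, and they were the highest of many.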
